A study of Mus musculus with 6 samples.

Results

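The genes followed here are 10 of interleukin-6 (IL-6) family signalling: the ligands Il6, Lif and Osm, the receptor chains Il6ra and Il6st, the kinase Jak1, the transcription factor Stat3, and the inhibitors Socs1, Socs2 and Socs3. They were found by matching the accession of each spot other than controls to a table of RefSeq mouse genes, and every probe was kept. This gave 16 probes for the 10 genes, 2 for each of 6 genes and 1 for each of 4, out of 56605 probes and 23462 matched genes on the arrays. The RNA came from BV2 cells, an immortalized mouse microglial line, hybridized to 6 single-colour Agilent arrays. Controls made up 3 of them, and the other 3 carry the label of PGC-1α (Ppargc1a) overexpression. PGC-1α is a transcriptional coactivator known for its role in mitochondrial biogenesis. Cells of both groups had been treated with LPS, a bacterial membrane component that activates microglia, so that no array shows cells without LPS. The study describes a lentivirus with the coding sequence of PGC-1α or a negative control, and puromycin selection of the overexpressing cells. Its cell culture methods give 500 ng/ml LPS for 6 h without naming the arrays. The titles of the control samples say only that they are without PGC-1α, and not whether they had the control virus or selection. Nothing in the sources used here says whether the 3 arrays of a group came from separate cultures, so the p-values may measure technical spread only. BV2 cells are a line and not primary microglia.

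IL-6 family cytokines act through receptors that share the signalling chain gp130, the product of Il6st, and that partner with a chain specific to the ligand, such as the IL-6 receptor α chain made from Il6ra. Binding activates JAK kinases bound to the receptor, which phosphorylate STAT3, and STAT3 dimers enter the nucleus and switch on target genes. Among these targets is Socs3, whose product binds gp130 and JAK and shuts the signal off, while SOCS1 and SOCS2 are inhibitors of the same protein family, known mainly from interferon and growth hormone signalling.

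The RefSeq table of promoters held 8 of the 10 genes, and 4 promoters are shown because they belong to the 2 members with the largest differences that the table held, Socs3 and Il6st, and to the 2 ligands with matches to the motifs searched, Il6 and Lif. Each run is the 250 bases before the start of the gene on build GRCm38.p6, 5′ to 3′ on the strand of the gene, with motif matches in capitals. The Socs3 run is chr11:117969367-117969616 on the minus strand, the Il6st run is chr13:112463820-112464069 on the plus strand, the Il6 run is chr5:30012864-30013113 on the plus strand and the Lif run is chr11:4257318-4257567 on the plus strand.
Socs3: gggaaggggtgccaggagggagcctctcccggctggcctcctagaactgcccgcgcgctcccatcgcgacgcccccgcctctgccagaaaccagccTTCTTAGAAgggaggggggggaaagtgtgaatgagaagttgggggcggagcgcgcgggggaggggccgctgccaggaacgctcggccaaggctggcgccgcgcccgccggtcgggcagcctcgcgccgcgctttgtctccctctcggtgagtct
Il6st: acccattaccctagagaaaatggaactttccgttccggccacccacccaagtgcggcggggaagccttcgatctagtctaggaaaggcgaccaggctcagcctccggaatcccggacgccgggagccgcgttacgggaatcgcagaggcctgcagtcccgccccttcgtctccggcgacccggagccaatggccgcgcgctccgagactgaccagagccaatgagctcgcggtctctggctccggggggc
Il6: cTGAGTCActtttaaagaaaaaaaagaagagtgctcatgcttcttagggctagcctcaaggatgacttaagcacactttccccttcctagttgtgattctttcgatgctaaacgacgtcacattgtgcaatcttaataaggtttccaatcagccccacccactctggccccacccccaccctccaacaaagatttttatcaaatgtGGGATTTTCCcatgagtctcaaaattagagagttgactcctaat
Lif: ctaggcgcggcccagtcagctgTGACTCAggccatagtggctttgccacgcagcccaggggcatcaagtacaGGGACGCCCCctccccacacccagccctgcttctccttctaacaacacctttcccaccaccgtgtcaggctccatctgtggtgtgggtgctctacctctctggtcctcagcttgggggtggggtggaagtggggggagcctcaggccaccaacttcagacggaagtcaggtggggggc

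The motifs searched on both strands were the STAT palindrome TTCNNNGAA, the AP-1 element TGANTCA, the NF-κB consensus and the ERR core AAGGTCA, and no match in these runs overlaps another. The Socs3 promoter held the STAT palindrome, 154 to 146 bases before the start, as the only one of 8 member promoters, against 7.02% of 32851 promoters of the same length. The Il6 and Lif promoters each held an AP-1 match and an NF-κB match, motifs found in 6.75% and 7.25% of all promoters. None of the 8 held the ERR core, which 4.08% of all promoters held. These matches describe letters in the window and not bound sites.

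A few facts of the arrays bear on these values. Levels are log2 intensities relative to the 75th percentile of the array, which was 1617 to 1893 intensity units on control arrays and 856 to 1268 on overexpression arrays. Under this scaling the median of all genes was 0.23 higher with PGC-1α, and with quantile normalization it was 0.02 higher, and the plot of log2 fold changes shows the member probes under both. With quantile normalization 50.3% of all genes called were higher, against 65.3% in the main scaling. The 2 probes of Ppargc1a itself were dim, 1 well above background on 2 arrays of each group and the other on 2 control arrays and 1 overexpression array. The first read 21.8, 19.6 and 9.06 intensity units on control arrays and 22.3, 22.1 and 21.2 on overexpression arrays. The other read 14.1, 20.3 and 13.8 on control arrays and 9.07, 12.4 and 15.0 on overexpression arrays. These values do not check the overexpression, and where the probes lie relative to the introduced coding sequence was not examined. Of 10 markers of microglia and macrophages, 8 were well above background on all 6 arrays and Cx3cr1 and P2ry12 on none. The summed level of the 8 was 66.6 to 69.8 on control arrays and 92.8 to 107 on overexpression arrays, in multiples of the 75th percentile, and 3 of the 8 were called higher and 1, Tmem119, lower. Among 6 markers of fibroblasts and vessel cells, all were well above background on all arrays, with summed levels of 16.4 to 17.6 and 27.0 to 32.5, 4 called higher and 1 lower. Of 5 markers each of astrocytes, neurons and oligodendrocytes, 3, 3 and 4 were well above background on all arrays. Of the 4, 4 and 5 tested, 2, 3 and 1 were called higher and 0, 1 and 0 lower. Those called higher include the neuron marker Rbfox3 and, as the only oligodendrocyte marker, Mobp, both well above background on 5 of 6 arrays. Summed levels of the 3 lists, in the same order, were 7.38 to 8.44, 24.3 to 29.7 and 1.47 to 1.66 on control arrays. On overexpression arrays they were 11.2 to 14.5, 36.5 to 49.9 and 1.54 to 1.75. Sums were taken on the linear scale, so the brightest marker of a list weighs most. Among astrocyte markers it was Aldoc, at a mean log2 level of 2.92 on control arrays, with other tested ones at -2.50 or below. Among neuron markers it was Snap25, at 4.65, followed by Tubb3 at 1.04, the neuron marker called lower. All marker sums and calls are given under the main scaling only, whose 75th percentile was lower on overexpression arrays. They are not given with quantile normalization, so they do not settle whether these markers rose. The part of these markers in the results below was not tested.

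Of the 10 genes, 4 (Osm, Il6ra, Il6st and Socs3) were lower with PGC-1α by the brightest probe of each gene, and none was higher. Across all genes tested, 52.9% passed the same test, 34.6% as higher and 18.4% as lower. Of the 16 member probes, 8 passed, all 8 as lower, against 53.5% of all tested probes called, 35.2% as higher and 18.2% as lower. The probes that passed belonged to 6 genes, since Il6 and Socs2 each had 1 probe that passed and a brighter one that did not. The Il6 probe that passed was tested only through the control group, where it was high. With a filter that left it out, asking for all 6 arrays well above background, 7 member probes passed, beside 19281 of 35869 probes. The median difference of the 10 genes was -0.34 on the log2 scale, beside 0.23 for all 17173 genes tested. The call was an adjusted p under 0.05 from limma over all 39297 tested probes, two-sided with Benjamini-Hochberg adjustment, and the number of member probes called was 5 without control replicate 2. With quantile normalization the same 8 probes were called, and 15 of the 16 kept their sign. An exact permutation test of 3 arrays against 3 cannot give a p under 0.1.

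**Figure D1:**
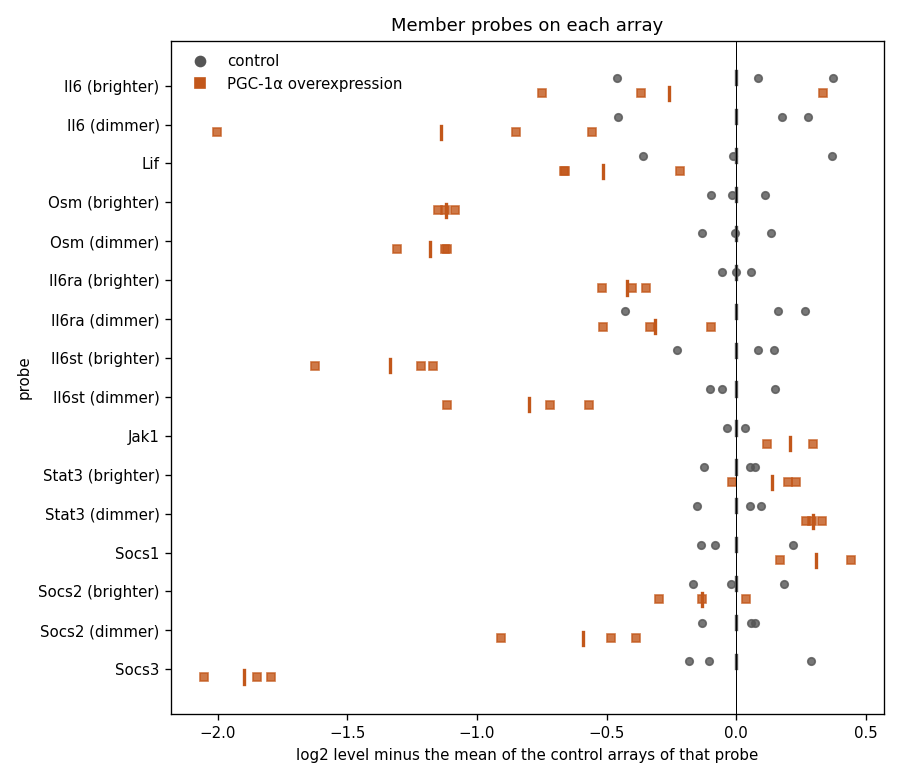
Each row is 1 of the 16 member probes, and the horizontal axis gives its log2 level on each array minus the mean of its control arrays. Circles are control arrays, squares are overexpression arrays and short bars are group means. The squares of Socs3, Il6st and Osm lie clear to the left of the circles, while the group means of Jak1, Stat3 and Socs1 lie to the right of 0, with overlapping groups for Socs1 and the brighter Stat3 probe.

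Among the ligands, Osm fell on both of its probes and Lif did not pass the test, while Il6 passed as lower on 1 dim probe of 2. Osm encodes oncostatin M, a cytokine made by activated macrophages. Its brighter probe, A_55_P2830665, gave control levels of -1.47, -1.60 and -1.68 and overexpression levels of -2.70, -2.66 and -2.73. The dimmer one, A_52_P348614, had levels of -2.53, -2.67 and -2.80 on control arrays and -3.98, -3.78 and -3.79 on overexpression arrays. On both probes every overexpression array was below every control array, and the 3 overexpression arrays of the brighter probe lay within an SD of 0.03. The log2 fold change was -1.12 (SE 0.13, adjusted p = 6.0e-04 by limma) on the brighter probe and -1.18 (SE 0.14, adjusted p = 6.8e-04) on the dimmer, or 2.17 and 2.27 times lower. Within slide 1, which held replicates 1 and 2 of both groups, the brighter probe differed by -1.15, and within slide 2, which held replicate 3 of both, by -1.06.

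Il6, the cytokine that gives the family its name, was dim on these arrays. Its brighter probe, A_55_P1997756, read 43.0, 63.2 and 89.8 intensity units on control arrays and 53.4, 18.6 and 36.0 on overexpression arrays. The dimmer probe, A_55_P2733612, read 33.3, 52.0 and 65.0 on control arrays and 18.2, 6.03 and 24.4 on overexpression arrays, with 2 of the 3 overexpression arrays well above background. The dimmer probe was thus tested through the control group, where it was high, and with a filter that asked for all 6 arrays well above background it was not tested and 7 member probes were called. The groups overlapped on the brighter probe and did not on the dimmer one. The log2 fold change was -0.26 (SE 0.31, adjusted p = 0.49) on the brighter probe and -1.14 (SE 0.37, adjusted p = 0.034) on the dimmer. Normexp background correction with the same scaling turned both to positive values, 0.19 and 0.093. The call of the dimmer probe was lost with no filter on dim probes (adjusted p = 0.067) and without control replicate 2 or 3 or overexpression replicate 1 or 2, at adjusted p-values of 0.053 to 0.11. The 2 probes differed by 0.88 in log2 fold change, a gap exceeded by 14.6% of the 6043 genes with several tested probes, whose median gap was 0.28.

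Lif encodes leukemia inhibitory factor, which signals through gp130 with the LIF receptor. Its probe had levels of -2.85, -3.23 and -3.58 on control arrays and -3.88, -3.43 and -3.88 on overexpression arrays. Overexpression replicate 2 lay above control replicate 3, so the groups overlapped. The log2 fold change of -0.51 (SE 0.22, adjusted p = 0.078) did not pass the threshold. It passed with the slide as a block (adjusted p = 0.036), without control replicate 3 (0.042) and without overexpression replicate 2 (0.045), and it shrank to -0.14 (adjusted p = 0.46) with normexp and the 75th percentile and to -0.33 (adjusted p = 0.23) without control replicate 1. Within slide 1 it was -0.62 and within slide 2 it was -0.30.

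Both receptor chains were lower with PGC-1α, Il6st more than Il6ra. Il6st, which encodes the shared chain gp130, had levels of 0.45, 0.39 and 0.08 on control arrays and -0.91, -1.32 and -0.86 on overexpression arrays by its brighter probe, A_51_P473888. By its dimmer probe, A_55_P2917440, the levels were -2.12, -2.32 and -2.37 on control arrays and -2.99, -3.39 and -2.84 on overexpression arrays. The groups did not overlap on either probe, and overexpression replicate 2 was the lowest array on both. The log2 fold change was -1.34 (SE 0.18, adjusted p = 0.0011), or 2.53 times lower, on the brighter probe and -0.80 (SE 0.17, adjusted p = 0.0074), or 1.74 times lower, on the dimmer. The brighter probe differed by -1.53 within slide 1 and by -0.94 within slide 2.

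Il6ra encodes the IL-6 binding chain, and its brighter probe, A_55_P2068892, had levels of 1.97, 1.86 and 1.92 on control arrays and 1.52, 1.40 and 1.57 on overexpression arrays. The groups did not overlap and the spread within each was small, with SDs of 0.06 and 0.09. The log2 fold change was -0.42 (SE 0.13, adjusted p = 0.024), or 1.34 times lower, and -0.65 relative to the median of all genes. Its call was lost with no filter on dim probes (adjusted p = 0.056) and without control replicate 1, 2 or 3 or overexpression replicate 1, at adjusted p-values of 0.057 to 0.073. The dimmer probe, with levels of -0.44, -0.54 and -1.13 on control arrays and -1.03, -0.80 and -1.22 on overexpression arrays, overlapped between groups and did not pass (-0.31, SE 0.21, adjusted p = 0.24).

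Neither Jak1 nor Stat3 passed the test in either direction. Stat3 had levels of 1.66, 1.68 and 1.49 on control arrays and 1.81, 1.84 and 1.59 on overexpression arrays by its brighter probe, A_51_P201480. Its dimmer probe, A_55_P1991219, had levels of 0.98, 0.74 and 0.94 on control arrays and 1.18, 1.16 and 1.22 on overexpression arrays. The groups overlapped on the first and not on the second. The log2 fold changes were 0.14 (SE 0.14, adjusted p = 0.42) and 0.30 (SE 0.13, adjusted p = 0.086), and the first turned to -0.045 with quantile normalization. Relative to the median of all genes they were -0.09 and 0.07. The kinase gene Jak1 had values on 2 arrays of each group only, since its spot was marked as an outlier on control replicate 1 and overexpression replicate 2. Its levels were 0.21 and 0.13 on control arrays and 0.29 and 0.47 on overexpression arrays, a log2 fold change of 0.21 (SE 0.18, adjusted p = 0.35). Jak1 was tested because outlier spots were allowed to count as above background, a choice made after its effect on Jak1 was seen, and with the other reading Jak1 was not tested while the count of 4 genes called stayed.

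**Figure D2:**
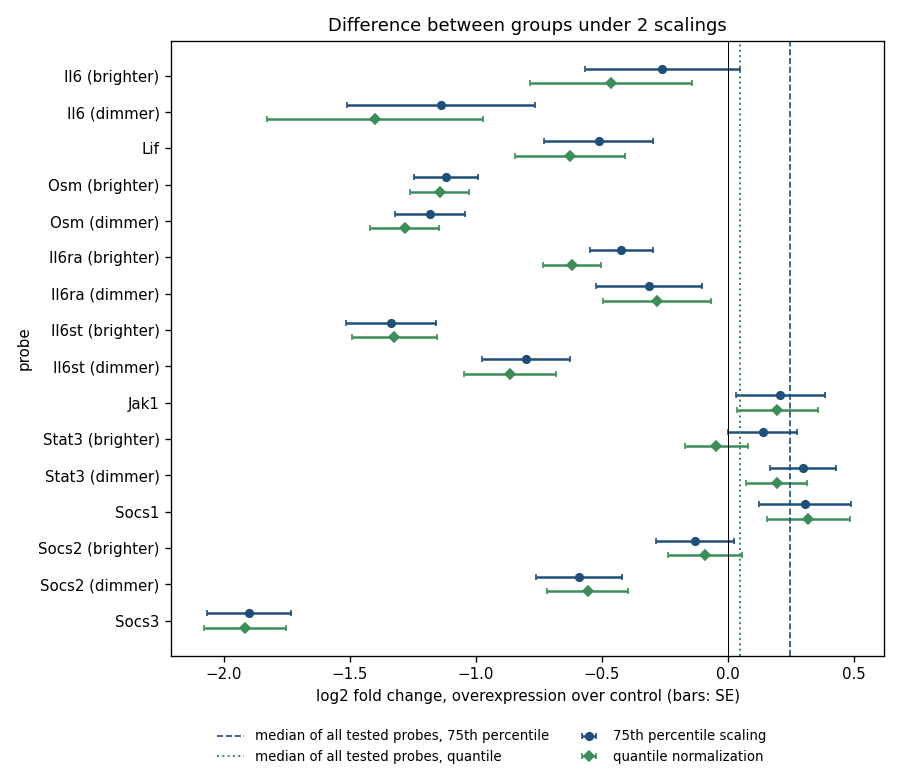
Each row is 1 of the 16 member probes, and the horizontal axis gives the log2 fold change of overexpression over control with its SE, as circles for 75th percentile scaling and as diamonds for quantile normalization. Vertical lines mark the median of all tested probes under each scaling, 0.25 and 0.05. Socs3 lies farthest to the left at -1.90 and -1.92, and the brighter Stat3 probe lies on both sides of 0.

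The inhibitors did not move together. Socs3 had the largest difference of the 16 member probes, and Socs1 did not pass the test. Socs3, the feedback inhibitor of gp130 signalling, had levels of 1.10, 0.63 and 0.70 on control arrays and -1.04, -1.24 and -0.98 on overexpression arrays by its single probe, A_51_P474459. In intensity units before scaling these were 3461, 2514 and 3083 against 563, 361 and 641. The lowest control array was 1.61 above the highest overexpression array on the log2 scale. The log2 fold change was -1.90 (SE 0.17, adjusted p = 2.1e-04), or 3.73 times lower, and -2.13 relative to the median of all genes. It was -2.01 within slide 1 and -1.69 within slide 2, and between -1.99 and -1.76 when each array was left out in turn. The STAT palindrome shown above lies in the promoter of this gene.

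Socs1 and Socs2 encode the other two inhibitors of the family followed here. Socs1 had levels of -1.60, -1.24 and -1.54 on control arrays and -1.29 and -1.02 on overexpression replicates 1 and 3, with replicate 2 left out as an outlier spot. Its log2 fold change was 0.31 (SE 0.18, adjusted p = 0.19). Socs2 had levels of -0.71, -0.86 and -0.51 on control arrays and -0.82, -0.99 and -0.66 on overexpression arrays by the probe A_55_P1992838, with overlapping groups. By A_51_P107362 its levels were -0.66, -0.47 and -0.45 on control arrays and -1.01, -1.43 and -0.91 on overexpression arrays, with no overlap. The first probe, the brighter by its mean over all arrays, gave -0.13 (SE 0.15, adjusted p = 0.49), and the second gave -0.59 (SE 0.17, adjusted p = 0.021). The call of the second was lost without control replicate 2 or 3, at adjusted p-values of 0.066 and 0.069, and 32.7% of genes with several tested probes had a larger gap between their probes.

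Of the 8 probes that passed, 5, on Osm, Il6st and Socs3, did so in every alternative that was run on them, with differences of 1.74 to 3.73 times in the main fit. Of the 21019 probes of the whole array that passed, 9350 did so in every alternative run on them. Of the 7167 that passed as lower, 3773 did. These were 23.8% and 9.6% of all tested probes, to be set beside 5 of the 16 member probes. Normexp with the 75th percentile reduced the dimmer Il6st probe to -0.48 and the dimmer Osm probe to -0.63. All 8 probes that passed had groups that did not overlap, which is not separate from the call, since both rest on the same values. The share without overlap among all called probes was not computed. Of the 14 member probes with values on all arrays, 9 had groups that did not overlap, beside 63.6% of all tested probes with values on all arrays. All 16 member probes had the same sign within slide 1 as within slide 2, which held 1 array of each group. Some of these differences were small, such as -0.02 for the brighter Il6 probe within slide 1 and -0.09 for the dimmer Il6ra probe within slide 2. The share of all tested probes with a shared sign was not computed, so this count cannot be read as particular to the members.

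A constant subtracted from all values of an array cancels in the difference between 2 probes, which quantile normalization and background correction can still change. Each member was therefore also set against the brighter Stat3 probe of the same array, a reference chosen after the values were seen. Only the change of this difference between groups is used, not its size. Socs3 changed by -2.04 relative to Stat3, Il6st by -1.48, Osm by -1.26, Lif by -0.65 and Il6ra by -0.56, and for these 5 of 9 genes the groups did not overlap. All 5 were among the 7 genes with values on every array, and of 16235 genes of the whole array with such values 59.6% did not overlap relative to Stat3, 26.3% with overexpression lower. Il6 changed by -0.40, Socs2 by -0.27, Jak1 by 0.09 and Socs1 by 0.22, all with overlapping groups.

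**Figure D3:**
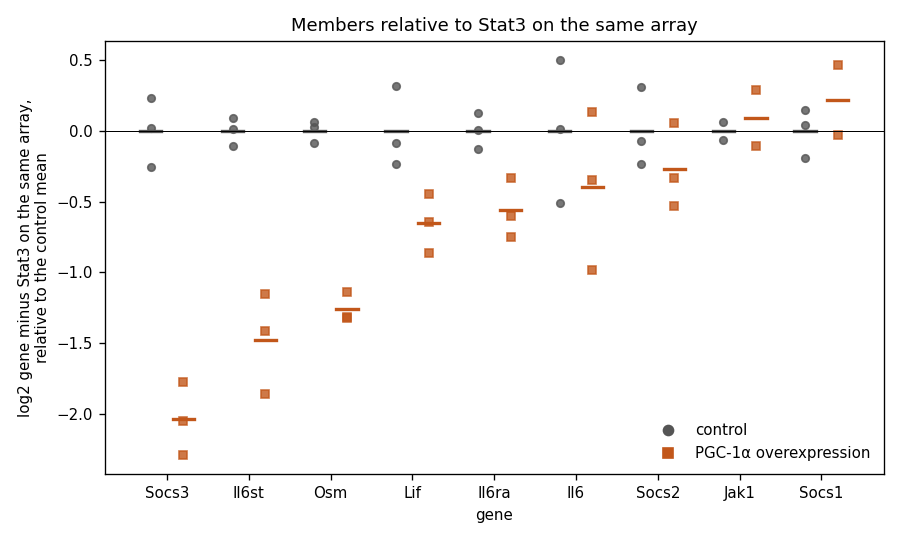
The vertical axis gives the log2 difference between each gene and Stat3 on the same array, minus the control mean of that difference, with circles for control arrays, squares for overexpression arrays and bars for group means. Socs3, Il6st, Osm, Lif and Il6ra have squares below all circles, and the squares of the other 4 genes overlap the circles.

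Other genes of the pathway were mixed in direction. Of 55 genes in 5 lists, 51 were tested, 24 passed, 9 as higher and 15 as lower, and 27 did not pass. The 47.1% called stand beside 52.9% of all genes, 34.6% as higher and 18.4% as lower. The counts of each list below are to be set beside the same shares. With quantile normalization 5 were called higher and 18 lower, beside 3640 and 3596 of all 17173 genes. The count called fell to 15 without control replicate 2 or 3. Ctf2, Osmr and Stat4 did not pass the filter on dim probes, and Mcl1 lacked values on enough arrays.

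Of 7 further IL-6 family cytokines tested, 3 rose, 1 fell and 3 did not pass, with a median of 0.66. With quantile normalization 1 was called higher and 1 lower, and the median was 0.38. Il11, 1 of the 3 that rose, held the median of 0.66 (adjusted p = 0.047 by limma). It was well above background on 2 of 3 control arrays, so it was tested through the overexpression group. It read 25, 21 and 18 intensity units on control arrays and 21, 22 and 20 on overexpression arrays. Its call was lost with quantile normalization (adjusted p = 0.17). Clcf1, which encodes a ligand of the ciliary neurotrophic factor receptor, had levels of -2.72 to -2.97 on control arrays and -1.85 to -2.30 on overexpression arrays, a log2 fold change of 0.74 (SE 0.16, adjusted p = 0.0072). Ctf1, cardiotrophin 1, gave 0.70 (SE 0.21, adjusted p = 0.023), and its call was lost with quantile normalization at an adjusted p of 0.16. Cntf, ciliary neurotrophic factor, gave -0.50 (SE 0.18, adjusted p = 0.048). The probes of Ctf1 and Cntf were dim, though well above background on all arrays. Ctf1 read 36, 30 and 55 intensity units on control arrays and 41, 28 and 56 on overexpression arrays. Cntf read 38, 57 and 54 on control arrays and 24, 15 and 29 on overexpression arrays. Of 6 receptor and shedding genes, 1 rose and 5 did not pass, with a median of 0.24, or 0.13 with quantile normalization. It was Cntfr, the ciliary neurotrophic factor receptor, at 0.90 (SE 0.19, adjusted p = 0.0067). The sheddases Adam10 and Adam17, which release the soluble IL-6 receptor, gave -0.20 (adjusted p = 0.32) and 0.17 (adjusted p = 0.28).

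Of 7 other JAK kinases and STAT factors, 2 rose, 2 fell and 3 did not pass, with a median of -0.27. With quantile normalization 1 was called higher and 2 lower, and the median was again -0.27. Stat5a gave 0.84 (SE 0.22, adjusted p = 0.018) on 3 control and 2 overexpression arrays, and its call was lost with quantile normalization at an adjusted p of 0.066. Stat2, a factor of the interferon response, gave 0.51 (SE 0.15, adjusted p = 0.021). Tyk2, a JAK family kinase, gave -0.68 (SE 0.15, adjusted p = 0.0083), and Stat5b gave -0.53 (SE 0.13, adjusted p = 0.013). Of 13 brakes on JAK-STAT signalling, 1 rose, 6 fell and 6 did not pass, with a median of -0.08, or -0.31 relative to all genes. With quantile normalization 1 was again higher and 6 lower, but not all were the same genes, and the median was -0.48. Socs6 lost its call there (adjusted p = 0.060 by limma). Ptpn6, at 0.04 in the main fit, was called lower there (-0.49, adjusted p = 0.015). The riser was Socs4, at 0.80 (SE 0.13, adjusted p = 0.0026). Pias1, which encodes a SUMO ligase that restrains STAT factors, gave -0.87 (SE 0.19, adjusted p = 0.0070), and Cish, a SOCS family inhibitor induced by STAT5, gave -0.71 (SE 0.15, adjusted p = 0.0062).

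Of 18 genes known as STAT3 targets, 2 rose, 6 fell and 10 did not pass, with a median of -0.18. With quantile normalization 1 was called higher and 9 lower, and the median was -0.36. Il10, an anti-inflammatory cytokine, had levels of -3.83, -3.80 and -4.14 on control arrays and -5.86, -6.94 and -5.78 on overexpression arrays. Its log2 fold change was -2.27 (SE 0.30, adjusted p = 0.0011). The probe was well above background on all control arrays but on 2 of 3 overexpression arrays, so it was tested through the control group, where it was high. Cebpd, a transcription factor of the acute phase response, had levels of -1.16, -1.15 and -1.10 on control arrays and -3.14, -3.00 and -2.81 on overexpression arrays, a log2 fold change of -1.85 (SE 0.14, adjusted p = 1.1e-04). On both genes every overexpression array lay below every control array, by at least 1.64 and 1.65. Vegfa, the vascular growth factor, rose by 1.10 (SE 0.14, adjusted p = 9.6e-04). Saa3, an acute phase protein, gave 0.59 (SE 0.14, adjusted p = 0.011), which turned to -0.05 with quantile normalization.

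**Figure D4:**
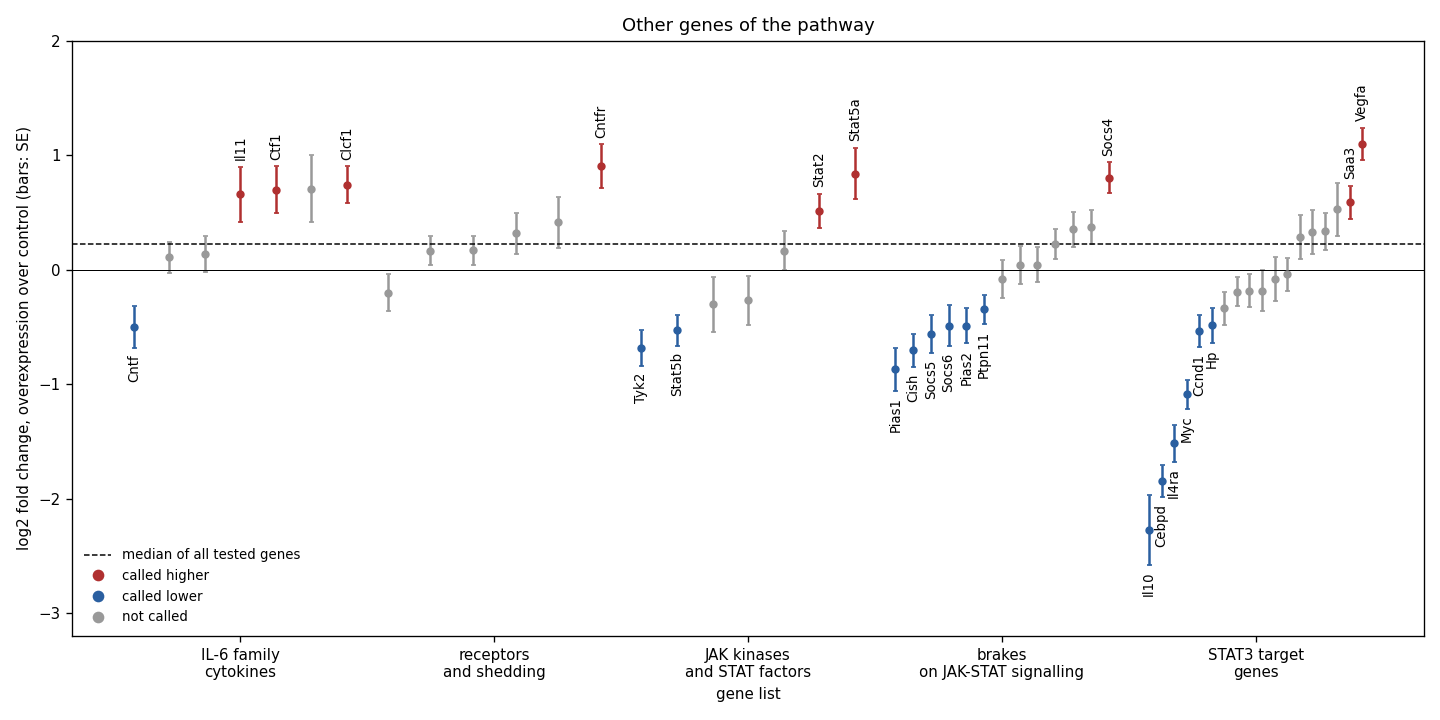
Each point is the log2 fold change of overexpression over control of 1 gene, with its SE, in 5 gene lists, coloured by whether it was called higher, lower or not called. The dashed line is the median of all tested genes, 0.23. Il10 and Cebpd lie at -2.27 and -1.85, Il10 by a probe that was well above background on 2 of 3 overexpression arrays, and Vegfa lies at 1.10.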

How the data were processed

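Intensity values of 6 single-colour arrays had been deposited by the authors as scanner output of Agilent Feature Extraction 11.5.1.1, with background subtracted in the green channel and no normalization between arrays. A table of log2 values of 42110 probes deposited by the authors, normalized in GeneSpring by a procedure not given in the sources used here, served as an alternative. The flags for background and outliers in the scanner output, of no unit, were used as deposited. Groups and replicate numbers came from the sample titles, which do not give the slide of an array. From the intensities, log2 was taken, the 75th percentile of each array over 59305 spots other than controls subtracted, outlier spots (149 to 1590 per array) left out and repeated spots averaged. No spot was saturated. The number of arrays and, for dim probes, the background limit the precision.

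Of 56605 probes, 33767 matched a gene of RefSeq for GRCm38.p6 by accession. Tested probes had 2 or more values per group and, in 1 group or both, stood well above background throughout. Outlier spots counted as above background where the scanner marked them so, a reading chosen after seeing the data, with the other reading run as an alternative. The linear models were those of limma 3.58.1 (lmFit, eBayes) under R 4.3.3, adjusted over all tested probes by Benjamini-Hochberg, and a gene was called by its brightest tested probe. The steps were tested on simulated data, where the share of false calls was above the nominal threshold in some runs, so adjusted p-values just under it are less certain than they read. Tables and plots were made with Python 3.11.15, numpy 2.4.6, pandas 2.3.3 and matplotlib 3.10.9. The members and lists were chosen with earlier results of these data known. The result of 1 gene of the lists is not reported here, and the counts leave it out. The genes named are the 10 members, Ppargc1a and a choice from each list. The choice was up to 2 genes with the largest positive and 2 with the largest negative difference among genes called without overlap. Each group had to show them well above background at least once. Adam10, Adam17, Cx3cr1, P2ry12, Tmem119, Il11, Rbfox3, Mobp, Aldoc, Snap25, Tubb3, Socs6, Ptpn6 and genes not tested were named after their values were seen. Alternatives were quantile normalization, normexp (offset 50, on the median signal), other filters, other units of the fit, slide or replicate blocks, a variance trend, the authors' log2 values and each array left out.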

Additional observations from a re-analysis of the deposited data

How the results depend on the processing

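Of the log2 fold changes of the 16 member probes, recomputed under the alternatives that could be run on each, 228 of 248 kept their direction and their side of the threshold, 12 lost the call, 4 gained it and 4 turned sign. The sign turned for both Il6 probes with normexp and the 75th percentile, to 0.19 and 0.093, and for the brighter Stat3 probe with quantile normalization, to -0.045, and with the authors' log2 values, to -0.039. The cause was not tested. The number of member genes called was 3 to 6 across all alternatives, and all called members were lower except 1 Stat3 probe, called higher with a variance trend and robust estimation. With each array left out in turn, 3 to 6 member genes, 5 to 8 member probes and 15 to 21 companion genes were called, and with no filter on dim probes 16 companion genes were. Counting outlier spots as not above background, an alternative added after seeing the data, left Jak1 untested and gave 4 member genes, 8 member probes and 24 companion genes.

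With the replicate number as a block, 4 member genes, 8 member probes and 22 companion genes were called. The labels share replicate numbers between groups, but arrays of the same number had deviations from their group means that correlated across probes at -0.21, 0.00 and 0.59, so the numbers were not taken as pairing, and not every array correlated best with its own number. Dim probes, such as those of Il6 and Ppargc1a, are limited by background.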
